A study of Homo sapiens with 24 samples.

Results

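The genes described here are 43 listed interferon-stimulated and antigen presentation genes, taken by name from the deposited expression table of 3 breast cancer cell lines. Where a gene had several probe sets, the one of highest mean across the 24 arrays was used. A single-symbol probe set was found for 42 of the 43 genes, among 19775 genes named on the array. After a filter on low signal, 38 of these 42 were among the 14141 genes tested. OAS1, OAS2, RSAD2 and CXCL11 fell below the filter and are given as signals, and STAT2 was not analysed here.

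RNA was hybridised to Affymetrix arrays, 3 per group in 8 groups. SUM149PT, an inflammatory breast cancer line, was infected with lentivirus for an shRNA against MCT1 or for a scramble shRNA, and both groups were selected with puromycin at 2 µg/ml for 5 days. MCT1 carries lactate and pyruvate across the cell membrane. In a separate experiment HS578T, SUM149PT and SUM159PT received the MCT1 inhibitor AZD3965 or the solvent DMSO for 24 h. SUM149PT and SUM159PT grew in F12 medium with 10% FBS and insulin, hydrocortisone and EGF, whereas HS578T grew in DMEM with 10% FBS and none of these 3 additives, so line and medium cannot be told apart between HS578T and the other lines. The labels name no interferon treatment in any group. Both treatments addressed whether MCT1 takes part in the Warburg phenotype, the avid use of glucose by tumour cells.

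Interferons bind cell-surface receptors whose JAK kinases activate STAT proteins. With IRF9 these enter the nucleus and switch on genes that carry an interferon-stimulated response element in their promoter. The products block viral entry (IFITM proteins), bind viral RNA (IFIT and OAS proteins), tag proteins with ISG15, and cut and carry peptides for display on class I molecules (the immunoproteasome subunits PSMB8 and PSMB9, the transporter TAP1-TAP2 and tapasin, encoded by TAPBP). Many tumour lines express part of this set without added interferon.

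Stretches of promoter are shown for the 5 members of smallest p in a treatment comparison whose promoter held the letters of the response element, and for PSMB5, the constitutive counterpart of PSMB8, in which no match was found. They are RefSeq sequences of build GRCh38.p14, printed 5′ to 3′ on the strand of the gene, with matches to GAAANNGAAA or its reverse complement in capitals. Overlapping matches are joined. The stretches lie at chr6:32838758-32838827 (minus strand) for TAP2, chr1:1013360-1013429 (plus strand) for ISG15, chr11:313970-314039 (plus strand) for IFITM1, chr6:32853793-32853862 (minus strand) for TAP1, chr1:78649741-78649788 (plus strand) for IFI44 and chr14:23035221-23035290 (minus strand) for PSMB5.
TAP2: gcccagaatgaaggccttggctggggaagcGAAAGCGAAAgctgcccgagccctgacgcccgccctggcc
ISG15: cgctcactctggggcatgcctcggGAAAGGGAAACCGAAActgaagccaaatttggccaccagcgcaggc
IFITM1: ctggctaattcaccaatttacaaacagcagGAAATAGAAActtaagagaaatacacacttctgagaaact
TAP1: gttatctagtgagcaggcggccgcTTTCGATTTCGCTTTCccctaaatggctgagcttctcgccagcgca
IFI44: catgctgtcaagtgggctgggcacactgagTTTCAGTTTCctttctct
PSMB5: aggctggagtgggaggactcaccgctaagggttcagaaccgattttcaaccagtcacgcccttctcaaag

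A promoter sequence was found for 34 members. GAAANNGAAA, searched on both strands in the 250 bases before the start of the gene, occurred in 22 of these 34 promoters (64.7%), against 839 of 27305 promoters in the table (3.07%). TTCNNNGAA, the letters to which STAT dimers bind, occurred in 8 of 34 (23.5%), against 1850 of 27305 (6.78%). A match describes the letters only. The windows of the immunoproteasome genes PSMB8 and PSMB9 held 0 matches to the first motif. That of PSMB5 held none either, but PSMB5 was chosen for display on that condition. TAP2, PSMB8, TAP1 and PSMB9 follow each other on chromosome 6 with 0 protein-coding genes between them, and TAPBP lies 17 protein-coding genes further on. IFITM2, IFITM1 and IFITM3 are likewise direct neighbours on chromosome 11.

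The arrays resembled each other within groups. Across the log2 values of the genes tested, the mean correlation between an array and the rest of its group was 0.981 to 0.992. Scramble shRNA array 3 stood apart in RNA quality. Its ratio of signal from the 3′ end to the 5′ end of the actin transcript was 53.8, whereas the highest ratio on any other array was 2.14. Its ratio for GAPDH was 2.35, against at most 0.948 elsewhere, so values without it are given beside the calls in the shRNA comparison. The 7 epithelial markers summed to 5951 to 6062 units in HS578T, 50493 to 52962 units in SUM149PT and 9430 to 11437 units in SUM159PT under DMSO. EPCAM averaged 12.5 ± 3.86 units in HS578T, 14967 ± 551 units in SUM149PT and 54.6 ± 35.9 units in SUM159PT, whereas KRT18 averaged 5629 ± 92.8, 15896 ± 1079 and 7470 ± 790 units in the same order (SD, n = 3 each), so epithelial markers were mixed in HS578T and SUM159PT. HS578T instead had summed fibroblast markers of 52697 to 58370 units under DMSO, against 998 to 1164 units in SUM149PT and 6792 to 7418 units in SUM159PT. Of the leukocyte markers, PTPRC averaged at most 43.8 units in any group, while CD14 reached 472 units in SUM149PT of the inhibitor experiment. The labels do not state whether the arrays of a group stem from separate cultures. The p-values therefore rest on a spread that could be technical, and 3 arrays per group limit the precision.

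**Figure D1:**
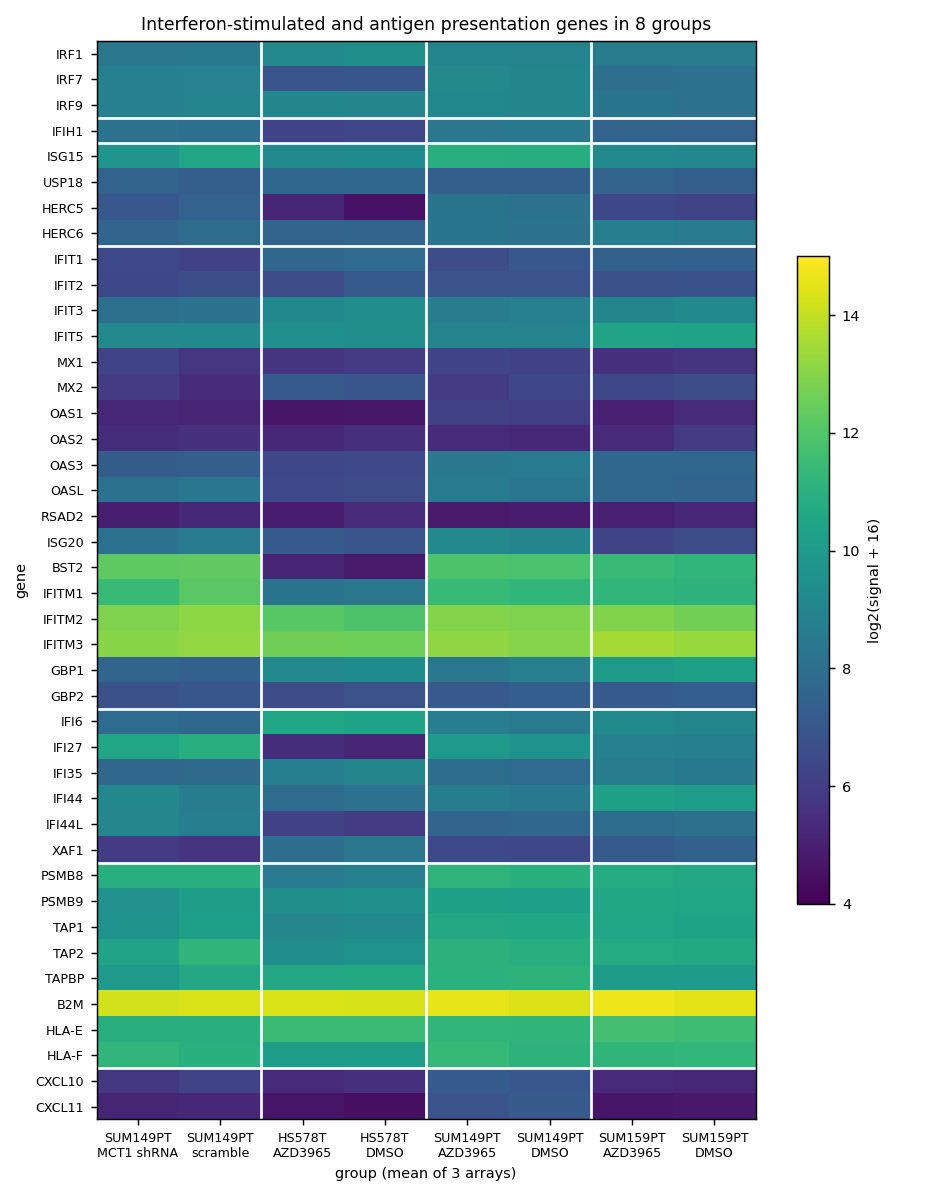
Mean log2(signal + 16) of the 42 measured genes (rows, grouped by role between the white lines) in the 8 groups (columns, means of 3 arrays each, treated group left of its control). BST2, IFI27 and HERC5 were dim in both HS578T groups.

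Between MCT1 shRNA and scramble cells of SUM149PT, the peptide transporter genes TAP1 and TAP2, the tapasin gene TAPBP, the immunoproteasome gene PSMB9, ISG15 and the membrane proteins IFITM1 and IFITM2 fell, and IFI44 rose. In all, 8 of the 38 members tested passed an adjusted p of 0.05 in limma (21.1%), against 14.9% of all 14141 genes. The 1 that rose stands beside 7.22% of all genes that rose, and the 7 that fell stand beside 7.64% of all genes that fell. The median log2 difference was -0.09 over the 38 members and -0.0034 over all genes tested. In these bulk samples fewer cells expressing a gene and less RNA per cell cannot be told apart.

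The transporter of peptides into the endoplasmic reticulum is built from TAP1 and TAP2. TAP2 had 1325, 1362 and 1405 units in MCT1 shRNA cells, against 2581, 2233 and 2132 units in scramble cells. The groups did not overlap, and the log2 difference was -0.75 ± 0.08 (SE, adjusted p = 5.01e-07). TAP1 had 889, 587 and 874 units in MCT1 shRNA cells, against 1265, 1102 and 1160 units in scramble cells. All MCT1 shRNA arrays lay below all scramble arrays (log2 difference -0.60 ± 0.12, adjusted p = 0.00149). The TAP2 call rested on its brightest probe set: the next brightest, with a mean of 1216 units over all arrays, gave -0.14 ± 0.13 (adjusted p = 0.621). With the mean of all its probe sets, TAP2 gave -0.36 (adjusted p = 0.0788).

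TAPBP encodes tapasin, which holds class I molecules beside the transporter until a peptide fits. It had 975, 917 and 1031 units in MCT1 shRNA cells, against 1360, 1200 and 2485 units in scramble cells. The groups did not overlap, but the highest scramble value was that of array 3. The log2 difference was -0.70 ± 0.16 (adjusted p = 0.00383) with all arrays and -0.39 (adjusted p = 0.00965) without that array. Its other probe sets gave 0.08 ± 0.22 and -0.20 ± 0.21, with adjusted p of 0.915 and 0.688, and the mean over its probe sets gave -0.28 (adjusted p = 0.113).

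PSMB9 replaces a catalytic subunit of the proteasome, which changes the peptides that are cut. It had 746, 804 and 694 units in MCT1 shRNA cells, against 1190, 996 and 1074 units in scramble cells. The groups did not overlap, and the log2 difference was -0.53 ± 0.09 (adjusted p = 0.000268). PSMB8, the other immunoproteasome subunit among the members, had 1924, 1968 and 1845 units in MCT1 shRNA cells, against 2412, 2027 and 1376 units in scramble cells. The MCT1 shRNA values lay inside the scramble range, and the log2 difference of 0.02 ± 0.13 did not pass (adjusted p = 0.955). PSMB8 lies between TAP2 and TAP1 on chromosome 6.

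The class I heavy chains HLA-E and HLA-F and their light chain B2M did not pass. HLA-E differed by 0.03 ± 0.08, HLA-F by 0.26 ± 0.12 and B2M by -0.13 ± 0.09 on the log2 scale, with adjusted p of 0.845, 0.146 and 0.411. HLA-E and HLA-F are read by probe sets of a kind that can match related genes, as are IFITM2 and IFITM3. In total 4 of the 8 antigen presentation members fell and 0 rose, against 7.64% of all genes that fell and 7.22% that rose.

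ISG15 is a ubiquitin-like protein that is joined to other proteins or secreted. It had 879, 835 and 810 units in MCT1 shRNA cells, against 1364, 1267 and 1659 units in scramble cells. The groups did not overlap, and the log2 difference was -0.75 ± 0.09 (adjusted p = 5.18e-06), or -0.63 (adjusted p = 2.55e-05) without scramble array 3. The ligases HERC5 and HERC6 and the protease USP18, which attach and remove ISG15 or resemble the enzymes that do, did not pass: HERC5 differed by -0.45 ± 0.27, HERC6 by -0.30 ± 0.13 and USP18 by 0.15 ± 0.15.

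Among the antiviral effectors 2 of 15 tested passed (13.3%), a share near the 14.9% of all genes. Both belong to the IFITM family, which restricts the fusion of viruses with cell membranes. IFITM1 had 2456, 2605 and 3121 units in MCT1 shRNA cells, against 4721, 4347 and 4695 units in scramble cells. The groups were far apart relative to their spread, with a log2 difference of -0.75 ± 0.12 (adjusted p = 0.000112). IFITM2 had 6974, 7680 and 7921 units in MCT1 shRNA cells, against 9018, 8731 and 9327 units in scramble cells. Its difference of -0.26 ± 0.08 passed narrowly (adjusted p = 0.0242) and did not pass without scramble array 3 (-0.24, adjusted p = 0.0701). IFITM3 differed by -0.18 ± 0.09 (adjusted p = 0.194), although its MCT1 shRNA values of 8093 to 8557 units lay below its scramble values of 9072 to 9591 units.

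The remaining effectors did not pass. ISG20, an exonuclease that degrades viral RNA, differed by -0.44 ± 0.17 (adjusted p = 0.0925), and MX1 and MX2, GTPases that trap viral particles, by 0.51 ± 0.47 and 0.55 ± 0.37. IFIT1, IFIT2, IFIT3 and IFIT5, which bind foreign RNA or are related to proteins that do, differed by 0.26 ± 0.28, -0.27 ± 0.25, -0.12 ± 0.13 and 0.01 ± 0.08. BST2, which tethers budding viruses to the cell surface, differed by -0.06 ± 0.19, and its MCT1 shRNA values of 4749 to 4938 units lay within the scramble range of 4562 to 5425 units. The regulators IRF1, IRF7 and IRF9 differed by -0.09 ± 0.13, -0.07 ± 0.14 and -0.10 ± 0.15, and the RNA sensor IFIH1 by 0.16 ± 0.20.

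IFI44 was the only member that rose in this comparison. It had 507, 546 and 611 units in MCT1 shRNA cells, against 330, 371 and 437 units in scramble cells. The groups did not overlap, with a log2 difference of 0.53 ± 0.12 (adjusted p = 0.00315), or 0.64 (adjusted p = 0.00107) without scramble array 3. Its neighbour IFI44L, with 506 to 600 units in MCT1 shRNA cells and 377 to 450 units in scramble cells, differed by 0.41 ± 0.18 and did not pass (adjusted p = 0.138). A dimmer probe set of IFI44 gave 0.10 ± 0.31 (adjusted p = 0.929), and the mean of both gave 0.32 (adjusted p = 0.265). IFI6, with 236, 177 and 225 units in MCT1 shRNA cells and 279, 294 and 86.4 units in scramble cells, differed by 0.11 ± 0.25, but without scramble array 3, the lowest of these, it differed by -0.42 (adjusted p = 0.0485). The chemokine gene CXCL10 differed by -0.48 ± 0.29 (adjusted p = 0.306) at signals of at most 70.1 units.

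**Figure D2:**
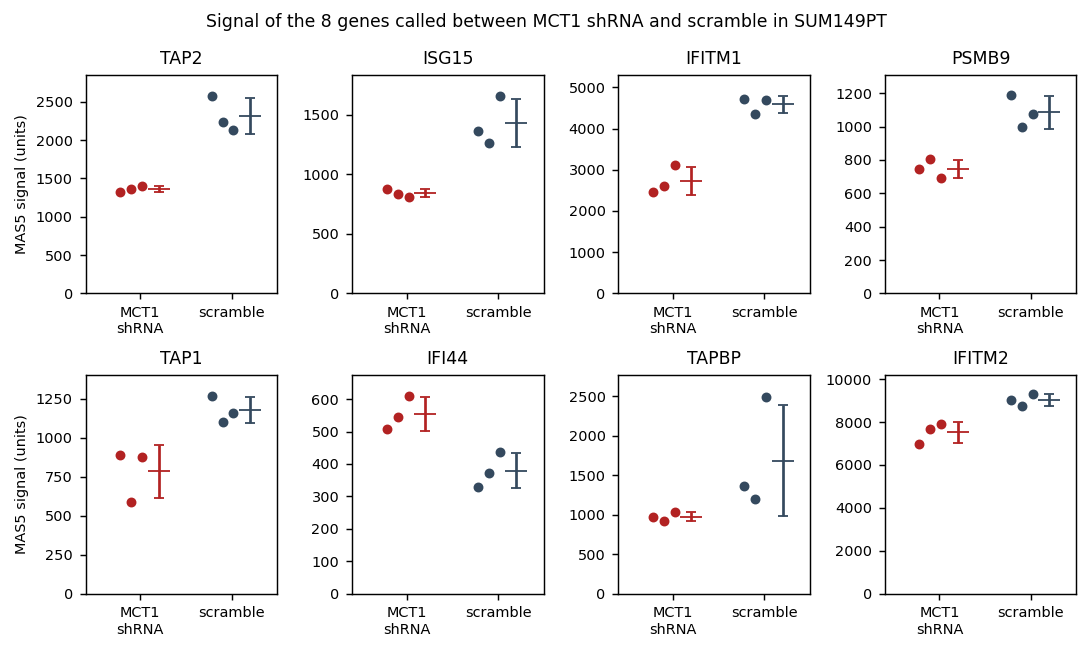
Signal in MAS5 units, on axes starting at 0, for the 8 genes that passed between MCT1 shRNA (left) and scramble (right) cells of SUM149PT. Points are single arrays in the order 1 to 3, horizontal lines with bars are the mean and SD of 3 arrays. In none of the 8 genes do the groups overlap, which their selection by p favours, and the highest scramble point of TAPBP is array 3.

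Without scramble array 3 again 8 members passed, 7 of them shared with the fit of all arrays. IFITM2 was lost and IFI6 was gained. The log2 differences without that array were -0.81 for TAP2, -0.61 for TAP1, -0.54 for PSMB9 and -0.74 for IFITM1, with adjusted p of 5.12e-07, 0.00444, 0.000818 and 0.000631 in limma. The fit of the 6 shRNA arrays alone called 4 members (TAP2, ISG15, IFITM1 and PSMB9) at the same differences, with adjusted p of 0.0692 for TAP1, 0.124 for TAPBP, 0.0626 for IFI44 and 0.0975 for IFITM2. Centring each array on its own median shifted all genes by -0.11 in this comparison, and the same 8 members passed with unchanged direction. Markers of other cell types were compared as well. Of 7 epithelial markers, 2 (KRT19 and KRT8) rose and 0 fell, with sums of 57925 to 62730 units in MCT1 shRNA cells and 44208 to 48960 units in scramble cells, and KRT8 did not pass without scramble array 3 (adjusted p = 0.0798). Of 4 fibroblast markers, DCN rose by 1.35 ± 0.10, or 1.26 without scramble array 3, and the sums were 2404 to 2703 units in MCT1 shRNA cells and 913 to 1121 units in scramble cells. These sums were nearly all DCN, since LUM, PDGFRA and COL3A1 reached at most 15.1, 17.2 and 53.9 units on these arrays. Without scramble array 3 PDGFRA, at these near-background signals, also passed, at -0.64. Of 3 leukocyte markers tested 0 passed in limma and 0 had an unadjusted p under 0.05, and the 5 leukocyte markers measured had sums of 186 to 226 units in MCT1 shRNA cells and 136 to 190 units in scramble cells. Beside these marker counts stand 14.9% of all genes that passed, 7.22% higher and 7.64% lower. The part of these marker differences in the results was not tested.

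Other genes of class I peptide loading, from a list of 17 with 15 tested, moved in both directions between MCT1 shRNA and scramble cells. There 6 rose and 3 fell, 60% of those tested against 14.9% of all genes. The class I heavy chain gene HLA-B rose to 2918 ± 126 units in MCT1 shRNA cells, against 2150 ± 233 units in scramble cells (SD, n = 3 each), a log2 difference of 0.44 ± 0.09 (adjusted p = 0.000856 in limma). HLA-C rose by 0.38 ± 0.10, and the chaperones PDIA3 and CANX, which fold class I molecules, by 0.24 ± 0.06 and 0.35 ± 0.09. With probe sets of the kind that can match related genes left out, HLA-B and HLA-C had no value. Their rises need not be specific to each gene. RFX5, a DNA-binding factor of class I and class II promoters, fell to 884 ± 144 units in MCT1 shRNA cells, against 1269 ± 33.6 units in scramble cells (log2 difference -0.53 ± 0.11, adjusted p = 0.00142). Without scramble array 3, 4 rose and 1 fell, and these 5 named genes all passed. The rises depended on the scaling: with each array centred on its median, HLA-B (0.33, adjusted p = 0.0679), HLA-C (0.27, adjusted p = 0.199), PDIA3 (0.13, adjusted p = 0.472) and CANX (0.24, adjusted p = 0.204) did not pass, whereas RFX5 did. HLA-C also did not pass without MCT1 shRNA array 2 or scramble array 2, nor CANX without MCT1 shRNA array 3 (adjusted p = 0.0839, 0.0761 and 0.0563). None of the 4 constitutive proteasome genes PSMB5, PSMB6, PSMB7 and PSME3 passed in limma, and 1 of them had an unadjusted p under 0.05.

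**Figure D3:**
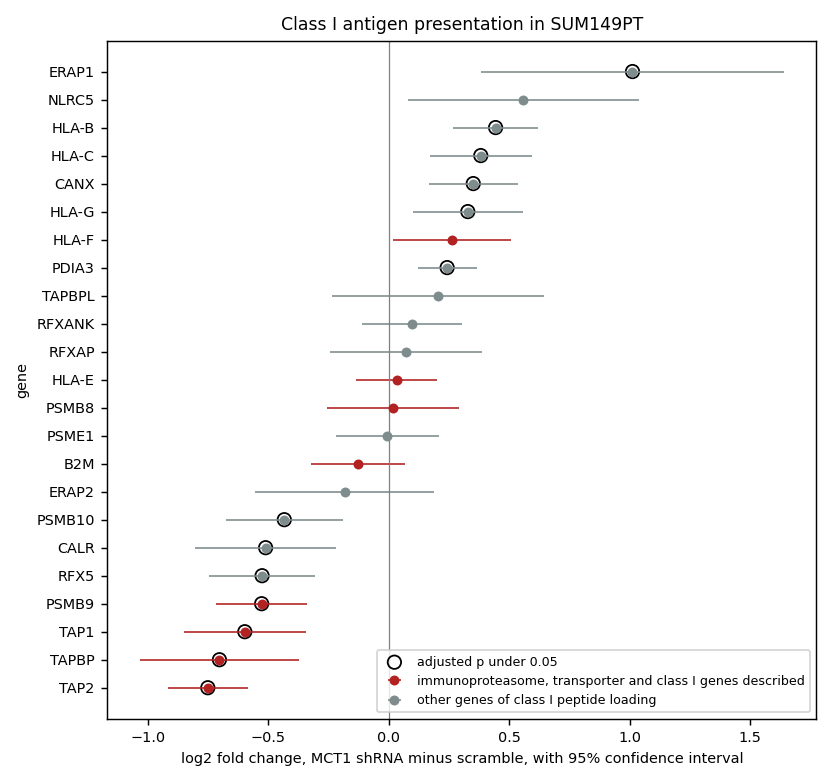
Log2 fold change of MCT1 shRNA minus scramble with 95% confidence interval (x axis) for 23 genes of class I presentation (y axis, sorted by value), in red for the 8 antigen presentation genes described and in grey for the other 15 tested genes of class I peptide loading. Rings mark an adjusted p under 0.05: 4 of the red genes lie below 0 with a ring and 0 above, while the grey genes have 6 rings above 0 and 3 below. With median centring HLA-B, HLA-C, PDIA3 and CANX lose their rings.

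Of 40 further interferon-induced genes tested, 4 rose and 3 fell in MCT1 shRNA cells, 17.5% against 14.9% of all genes, with a median of -0.02. WARS1, a tryptophanyl-tRNA synthetase, rose to 2882 ± 196 units in MCT1 shRNA cells, against 1562 ± 151 units in scramble cells (log2 difference 0.88 ± 0.09, adjusted p = 1.76e-07, or 0.95 without scramble array 3), and PARP12, an antiviral ADP-ribosyltransferase, rose by 0.56 ± 0.10. SP100, a nuclear body protein, fell by 0.50 with an SE of 0.09 on the log2 scale (adjusted p = 0.000242), although the mean over its probe sets gave 0.04 (adjusted p = 0.806). DTX3L, a ubiquitin ligase, fell by 0.38 on the same scale with an SE of 0.09, and LAMP3, a lysosomal membrane protein, rose by 0.85 ± 0.24 but did not pass without scramble array 3 (adjusted p = 0.128). Of 9 interferon receptor and kinase genes JAK1 rose, by 0.24 ± 0.07, and of 13 tested genes of RNA and DNA sensing TLR3 rose, by 0.56 ± 0.17. Of 10 other signal transducers and regulators the feedback inhibitor SOCS3 fell, by 0.60 with an SE of 0.20. Each of these lists held a single call, a share below the 14.9% of all genes that passed. Of 10 class II genes 2 rose, against 7.22% of all genes that rose and 14.9% that passed. They were HLA-DPB1 by 0.98 ± 0.26 and HLA-DRA by 1.19 ± 0.39, the second not passing without scramble array 3 (adjusted p = 0.14). These last 5 calls were weak. JAK1 passed under 10, TLR3 under 11 and SOCS3 under 7 of 17 alternatives, and HLA-DRA under 5 of 15, with adjusted p up to 0.546, 0.144, 0.936 and 0.269 apart from single arrays left out, and HLA-DPB1 did not pass without MCT1 shRNA array 3 (adjusted p = 0.0658). Of 13 named interferon genes only IFNL1 was bright enough to be tested, and the highest signal of any of them on any array was 87.0 units.

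The inhibitor of the same transporter did not move these genes past the threshold. With AZD3965 in SUM149PT, 0 of 38 members passed in limma, against 0.0283% of all genes (0.0212% higher and 0.00707% lower), and 4 members had an unadjusted p under 0.05. No share of all genes is given for unadjusted p, here or below, so such counts cannot be read as an excess among the members. Without AZD3965 array 1 the number of all genes called was 648, against 4 with it, and again 0 members passed. The smallest p belonged to HLA-F, with 2312, 2741 and 2973 units under AZD3965 and 1919, 2370 and 2258 units under DMSO. The lowest AZD3965 value lay between the DMSO values, and the log2 difference was 0.29 ± 0.12 (adjusted p = 0.224). IFITM3 had 8735, 9036 and 9957 units under AZD3965 and 7703, 8402 and 8113 units under DMSO (0.19 ± 0.09, adjusted p = 0.276). GBP1, a GTPase that attacks the vacuoles of pathogens, had 368, 306 and 302 units under AZD3965 and 384, 447 and 472 units under DMSO. Neither gene's groups overlapped, which their choice by smallest p favours. The GBP1 difference of -0.40 ± 0.19 did not pass either (adjusted p = 0.282).

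The genes that fell with the MCT1 shRNA had other values under AZD3965 in the same line. TAP2 had 1978, 2138 and 2246 units under AZD3965 and 1979, 1958 and 1864 units under DMSO, a log2 difference of 0.13 ± 0.08 (adjusted p = 0.423). The difference between the shRNA effect and the AZD3965 effect in SUM149PT, tested directly, passed for 6 of 38 members (15.8%), against 9.52% of all genes, and all 6 were more negative with the shRNA. They were TAP2 (-0.88 ± 0.11, adjusted p = 2.52e-05), ISG15 (-0.84 ± 0.13, adjusted p = 0.000219), IFITM1 (-0.92 ± 0.17, adjusted p = 0.00117), PSMB9 (-0.61 ± 0.13, adjusted p = 0.00395), TAP1 (-0.62 ± 0.17, adjusted p = 0.0261) and IFITM2 (-0.36 ± 0.11, adjusted p = 0.0435). Of all genes, 4.94% were more negative and 4.58% more positive with the shRNA. TAP1 did not pass when any of 5 single arrays was left out (adjusted p = 0.0573 to 0.0684), among them DMSO arrays 1 and 3. IFITM2 did not pass without scramble array 3 (adjusted p = 0.0754), while TAP2, ISG15, IFITM1, PSMB9 and TAP1 did, at -0.94, -0.73, -0.90, -0.62 and -0.63. Of the 6 members, 4 passed with each array centred on its median (TAP1 and IFITM2 had adjusted p of 0.0961 and 0.169) and 4 with the mean of probe sets (TAP2 and IFITM2 had 0.386 and 0.0536, TAP2 at -0.30). In a fit of the compared arrays alone 4 of them passed as well (TAP1 and IFITM2 had 0.0697 and 0.116), beside IFITM3 and IFI27. ISG15, IFITM1 and PSMB9 passed in all 4 of these settings, but each has 1 probe set, so the mean of probe sets cannot change their differences. TAPBP and IFI44 did not pass (adjusted p = 0.0984 and 0.157). The experiments also differed in duration, virus and selection, so the kind of MCT1 loss and these conditions cannot be told apart.

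**Figure D4:**
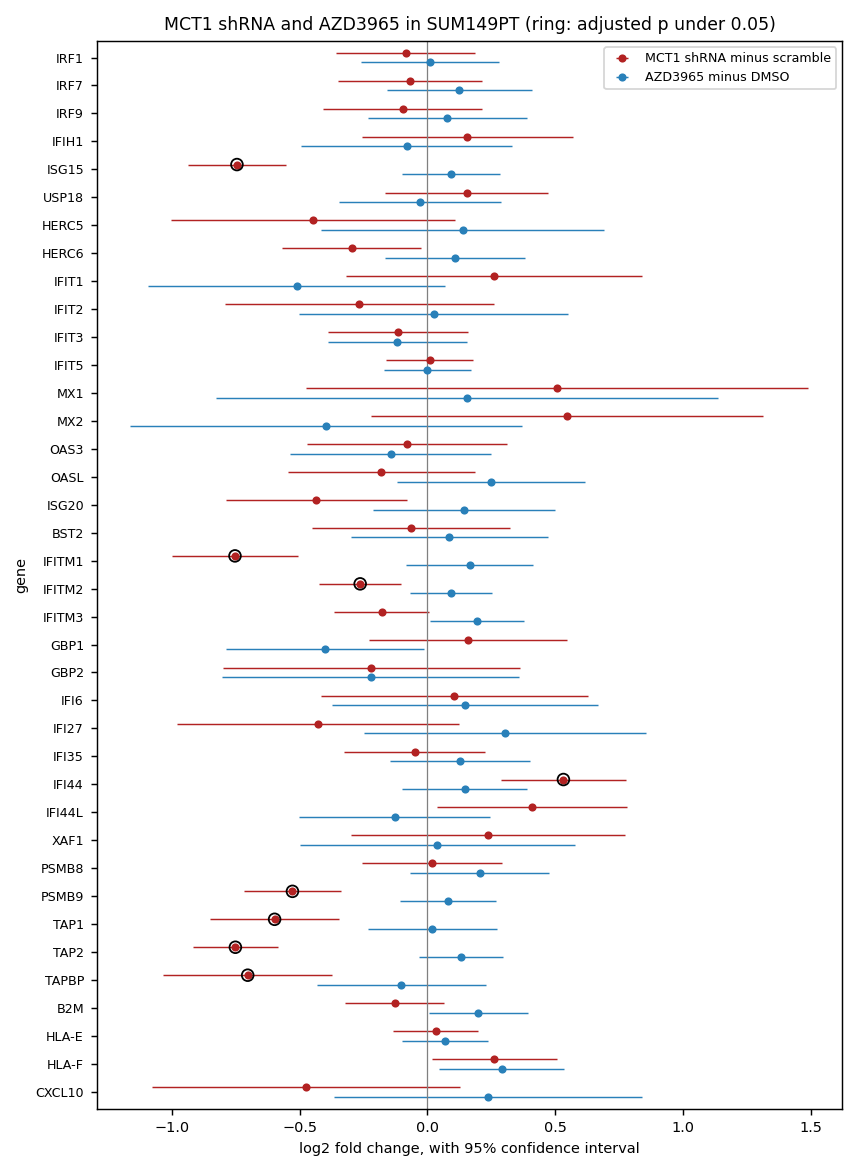
Log2 fold change with 95% confidence interval in SUM149PT (x axis) for the 38 members tested (y axis, ordered by role), in red for MCT1 shRNA minus scramble and in blue for AZD3965 minus DMSO. Rings mark an adjusted p under 0.05: 8 red points carry one, 7 of them below 0, and 0 blue points carry one.

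In HS578T, 0 of 38 members passed with AZD3965 in limma, against 0.304% of all genes (0.212% higher and 0.0919% lower), while 8 members had an unadjusted p under 0.05. That count of 8 likewise stands without a share of all genes at the unadjusted threshold. TAP2 had 606, 713 and 682 units under AZD3965 and 793, 776 and 801 units under DMSO. The groups did not overlap, but the log2 difference of -0.24 ± 0.08 did not pass after adjustment (adjusted p = 0.297). IFITM2 had 4457, 4536 and 4416 units under AZD3965 and 4070, 3936 and 3490 units under DMSO (0.22 ± 0.08, adjusted p = 0.359). IFIT2 had 92.6, 75.0 and 62.3 units under AZD3965 and 99.0, 162 and 125 units under DMSO (-0.63 ± 0.25, adjusted p = 0.454). In none of these 3 genes did the groups overlap, but they were picked by smallest p, which favours separate groups. The share of all genes with separate groups was not counted.

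In SUM159PT, 0 of 38 members and 0% of all genes passed in limma, and 2 members had an unadjusted p under 0.05. IFITM2 had 7111, 7732 and 8056 units under AZD3965 and 6562, 6576 and 6411 units under DMSO (0.23 ± 0.08, adjusted p = 0.728). IFITM3 had 10691, 11078 and 13671 units under AZD3965 and 10135, 10679 and 9473 units under DMSO (0.22 ± 0.09, adjusted p = 0.728). The groups of both genes were separate, by little in IFITM3, and both were picked by smallest p, which favours separate groups. HLA-E had 3169, 3268 and 3734 units under AZD3965 and 3267, 3112 and 2745 units under DMSO, which overlapped (0.16 ± 0.08, adjusted p = 0.728).

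Averaged over the 3 lines, 0 of 38 members passed with AZD3965 in limma, against 0.0283% of all genes, and 5 had an unadjusted p under 0.05. IFITM2 came closest with 0.18 ± 0.05 (adjusted p = 0.155), followed by IFITM3 with 0.15 ± 0.05 (adjusted p = 0.228) and GBP1 with -0.29 ± 0.11 (adjusted p = 0.24). The 95% confidence interval of the average lay within a 2-fold change for 38 of 38 members. In the single lines it did so for 35 members in HS578T, 35 in SUM149PT and 37 in SUM159PT. The widest limits were those of dim genes such as MX1, whose interval for the average began at -0.66. The AZD3965 effect differed between lines for 0 of 38 members in limma, against 0.120% of all genes, and 3 members had an unadjusted p under 0.05. TAP2 came first among them (adjusted p = 0.323 in limma). The related lists gave 1 call over the 3 lines: NMI, an interferon-induced adaptor that binds STAT proteins, fell by 0.34 with an SE of 0.07 on the log2 scale in HS578T (adjusted p = 0.0393). It did not pass when any 1 of the 6 HS578T arrays was left out (adjusted p = 0.0688 to 0.215), nor with median centring (-0.18, adjusted p = 0.466).

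The lines themselves differed in most of these genes under DMSO. HS578T, read against SUM149PT, was lower in 22 and higher in 9 of 38 members (81.6% in all), against 64.2% of all genes that passed in either direction. It was lower in 33.8% and higher in 30.4% of all genes. HS578T, read against SUM159PT, was lower in 21 and higher in 8 members (76.3%), against 58.0% of all genes, of which 30.7% were lower and 27.3% higher. SUM149PT, read against SUM159PT, was higher in 15 and lower in 9 members (63.2%), against 59.4% of all genes (30.0% higher and 29.3% lower), so in this last pair the share was near that of all genes. The median log2 difference over the members was -0.52 between HS578T and SUM149PT and -0.74 between HS578T and SUM159PT, whereas over all genes it was -0.02 and -0.03.

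BST2 differed most. It had 22.0, 5.41 and 11.4 units in HS578T under DMSO, against 3584, 3949 and 3590 units in SUM149PT and 2518, 2484 and 2215 units in SUM159PT. HS578T was at the bottom of the signal range, so the log2 differences of -7.05 ± 0.19 (adjusted p = 1.13e-19) and -6.42 ± 0.19 (adjusted p = 1.07e-18) depend on the offset added before the logarithm. With an offset of 1 the first was -8.24 and with an offset of 64 it was -5.62.

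IFI27, which codes for a small mitochondrial protein induced by type I interferon, had 29.9, 5.13 and 29.8 units in HS578T, against 730, 819 and 756 units in SUM149PT and 385, 412 and 438 units in SUM159PT. The log2 difference was -4.47 ± 0.27 against SUM149PT (adjusted p = 4.35e-13) and -3.59 ± 0.27 against SUM159PT (adjusted p = 3.94e-11). HERC5, the main ligase for ISG15 in human cells, had 2.08, 20.7 and 2.19 units in HS578T, against 339, 263 and 203 units in SUM149PT and 73.9, 56.8 and 51.5 units in SUM159PT. The order of HERC5, SUM149PT over SUM159PT over HS578T, held on every array.

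IFITM1 had 317, 363 and 279 units in HS578T, against 2248, 2462 and 2591 units in SUM149PT and 2378, 2205 and 2056 units in SUM159PT. SUM149PT and SUM159PT overlapped and did not differ beyond their spread (0.14 ± 0.12, adjusted p = 0.347). HS578T was lower than SUM149PT by -2.87 ± 0.12 and lower than SUM159PT by -2.74 ± 0.12 on the log2 scale. PSMB8 had 392, 457 and 443 units in HS578T, against 2031, 2015 and 1894 units in SUM149PT and 1556, 1621 and 1493 units in SUM159PT. TAP1, TAP2 and PSMB9 were lower in HS578T than in SUM149PT as well, by -1.34 ± 0.12, -1.27 ± 0.08 and -0.68 ± 0.09. On every array TAPBP was also lower in HS578T than in SUM149PT, but higher than in SUM159PT. HS578T had 1619, 1470 and 1765 units, SUM149PT 2058, 2352 and 2272 units, and SUM159PT 1093, 1056 and 925 units. These are values of the brightest TAPBP probe set. The mean over its probe sets had the opposite sign between HS578T and SUM149PT. In all, 6 of 8 antigen presentation members were lower and 1 was higher in HS578T than in SUM149PT, against 33.8% of all genes lower and 30.4% higher.

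ISG20 had 111, 107 and 86.2 units in HS578T, against 477, 558 and 473 units in SUM149PT and 76.6, 79.3 and 69.9 units in SUM159PT. HS578T and SUM159PT did not differ past the threshold (0.36 ± 0.17, adjusted p = 0.0791), and SUM149PT was higher than SUM159PT by 2.50 ± 0.17 (adjusted p = 7.6e-12). ISG15 had 650, 670 and 587 units in HS578T, against 1899, 1861 and 1745 units in SUM149PT and 562, 552 and 507 units in SUM159PT. SUM149PT was the high line, by 1.73 ± 0.09 over SUM159PT (adjusted p = 7.31e-14). OAS3, which makes the second messenger that activates RNase L, had 68.0, 57.6 and 88.4 units in HS578T, against 404, 293 and 380 units in SUM149PT and 221, 149 and 197 units in SUM159PT. IFIH1 had 69.7, 56.9 and 70.3 units in HS578T, against 360, 300 and 328 units in SUM149PT and 126, 171 and 191 units in SUM159PT.

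Other members were highest in SUM159PT or in HS578T. IFI44 had 261, 282 and 250 units in HS578T, 306, 312 and 390 units in SUM149PT and 1110, 1105 and 1116 units in SUM159PT. SUM159PT was higher than either other line on every array, and SUM149PT minus SUM159PT was -1.69 ± 0.12 (adjusted p = 1.17e-11). IFIT5 had 460, 524 and 459 units in SUM149PT, against 1346, 1345 and 1279 units in SUM159PT, and GBP1 had 384, 447 and 472 units in SUM149PT, against 1219, 1131 and 1293 units in SUM159PT. IFI44L had 39.0, 62.5 and 40.0 units in HS578T, against 236, 242 and 267 units in SUM159PT. IFI6, an inhibitor of cell death induced by interferon, had 1418, 1309 and 1273 units in HS578T, against 359, 381 and 331 units in SUM149PT and 543, 533 and 455 units in SUM159PT. HS578T was the high line for IFI6, by 1.86 ± 0.25 over SUM149PT and 1.36 ± 0.25 over SUM159PT (adjusted p = 5.8e-05 for the second).

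The chemokines that draw T cells were brightest in SUM149PT of the inhibitor experiment. CXCL10 had 24.0 to 33.0 units in HS578T under DMSO, against 86.4 to 128 units in SUM149PT and 17.6 to 29.2 units in SUM159PT, and SUM149PT was higher than SUM159PT by 1.69 ± 0.29 (adjusted p = 2.29e-05). CXCL11, below the filter, had 109, 144 and 130 units in SUM149PT under DMSO and 117, 120 and 64.5 units in SUM149PT under AZD3965, but at most 31.0 units in every other group, both shRNA groups of SUM149PT included. OAS1, OAS2 and RSAD2 reached at most 75.2, 72.5 and 29.8 units on any array.

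**Figure D5:**
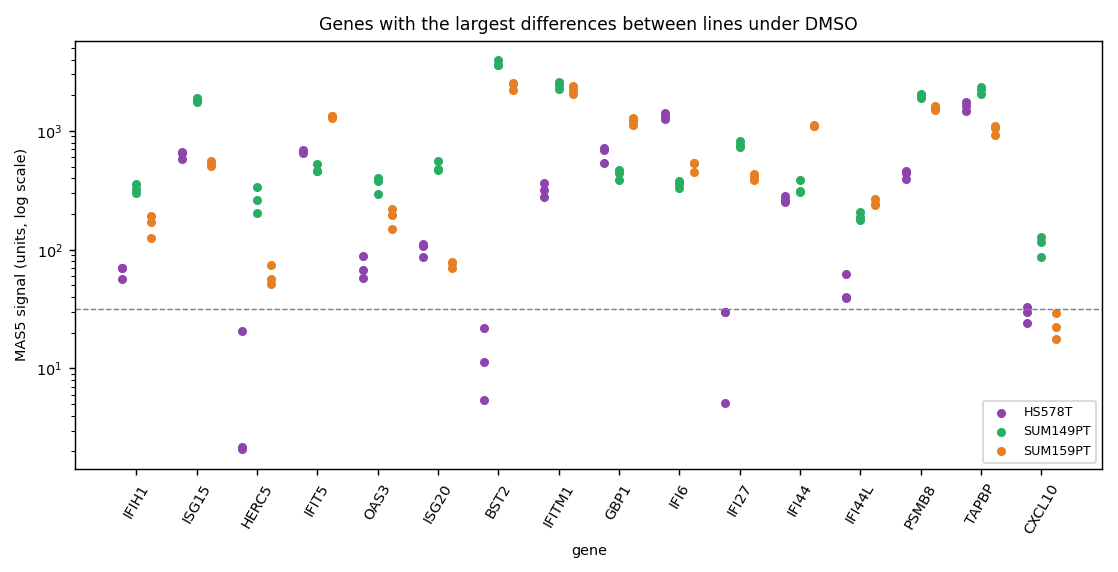
Signal in MAS5 units on a log axis for the members with the largest differences between lines under DMSO (x axis, ordered by role), with 3 arrays per line. The dashed line marks the filter at 31.7 units. HS578T points of BST2, IFI27 and HERC5 lie below it, while HS578T is the highest line in IFI6 only.

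Genes upstream of the members differed between lines as well. IFNLR1, the receptor subunit specific for type III interferons, averaged 13.6 ± 13.1 units in HS578T, against 634 ± 41.9 units in SUM149PT and 169 ± 42.6 units in SUM159PT (SD, n = 3 each). HS578T minus SUM149PT was -4.54 ± 0.21 in log2 (adjusted p = 2.5e-15). The HS578T signal lay below the filter, so the size depends on the offset: it was -5.81 with an offset of 1, -3.18 with an offset of 64 and -2.29 with the mean of its probe sets. JAK1, the kinase shared by all interferon receptors, averaged 6662 ± 335 units in HS578T, against 2163 ± 105 units in SUM149PT and 3935 ± 263 units in SUM159PT. Between HS578T and SUM149PT 5 of 9 receptor and kinase genes passed (55.6%), against 64.2% of all genes, 3 higher and 2 lower in HS578T. Of 13 sensing genes 9 passed (69.2%), 3 higher and 6 lower, and of 40 further interferon-induced genes 32 passed (80%), 21 higher and 11 lower in HS578T. The shares of the receptor and sensing genes were near that of all genes. Of all genes 30.4% were higher and 33.8% lower in HS578T. The further interferon-induced genes were thus more often higher in HS578T, opposite to the members, which were more often lower. HLA-DRA averaged 17.6 ± 19.4 units in HS578T, against 199 ± 16.9 units in SUM149PT and 7.36 ± 6.11 units in SUM159PT. Of the marker lists, 7 of 7 epithelial genes were lower and 4 of 4 fibroblast and 5 of 5 mesenchymal genes higher in HS578T than in SUM149PT, and their part in these results was not tested.

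The 2 control groups of SUM149PT differed from each other. Scramble shRNA, read against DMSO, was higher in 6 and lower in 11 of 38 members (44.7%), against 33.0% of all genes, of which 17.7% were higher and 15.3% lower. Without scramble array 3, 14 members passed, all of them among the 17. The balance depended on the scaling and the fit: with each array centred on its median 12 members passed, 7 higher and 5 lower, 11 of them among the 17, and in a fit of the compared arrays alone 12 passed, 4 higher and 8 lower, 9 of them among the 17. GBP1 had 208, 165 and 112 units in scramble cells, against 384, 447 and 472 units under DMSO, and OAS3 had 185, 144 and 116 units in scramble cells, against 404, 293 and 380 units under DMSO. Both were lower in scramble cells, by -1.38 ± 0.19 (adjusted p = 5.59e-06) and -1.20 ± 0.19 (adjusted p = 3.55e-05). IFI27 had 1809, 1576 and 2370 units in scramble cells, against 730, 819 and 756 units under DMSO, and IFITM1 had 4721, 4347 and 4695 units in scramble cells, against 2248, 2462 and 2591 units under DMSO. Both were higher in scramble cells, by 1.28 ± 0.27 (adjusted p = 0.000672) and 0.91 ± 0.12 (adjusted p = 3.45e-06), as was IFI44L by 1.00 ± 0.18. IFIT3 had 281, 333 and 226 units in scramble cells, against 456, 378 and 437 units under DMSO (-0.58 ± 0.13, adjusted p = 0.00151). IFIT1 and IFI6 were lower by -0.86 ± 0.28 and -0.82 ± 0.25 but did not pass without scramble array 3 (adjusted p = 0.173 and 0.106). Virus, selection and the separate experiment cannot be told apart here. Of the 7 members that fell with the shRNA, IFITM1, IFITM2 and TAP2 were higher and ISG15, TAP1 and TAPBP lower in scramble cells than under DMSO. PSMB9 did not pass between these controls (-0.12 ± 0.09, adjusted p = 0.354), and TAP2 gave -0.11 with the mean of its probe sets. TAPBP overlapped between the controls at -0.48 ± 0.16, and gave -0.79 without scramble array 3. The 5 leukocyte markers measured summed to 136 to 190 units in scramble cells and 440 to 496 units under DMSO. That gap lay in CD14, which averaged 62.3 units in scramble cells and 389 units under DMSO. CD3E and ITGAM averaged more in scramble cells (26.8 and 51.8 units, against 12.2 and 39.5 units). PTPRC was alike (11.6 against 11.4 units), and LYZ averaged less (4.41 against 17.2 units). The part of these markers in the result was not tested.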

How the data were processed

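The deposited values were linear array intensity values made with MAS5 (no version named), per the submitters' processing notes. After 2% of probe sets were trimmed from either end, every array averaged 500.1, which shows a scaling done before deposition. Of 54675 probe sets 41097 had a single gene symbol, 1801 had several and 11777 had none in the annotation used. For each gene the probe set of highest mean log2 value was kept. An offset of 16 was added before log2, which understates changes of dim genes. The test kept genes whose mean log2 value reached 5.58 (31.7 units), which is percentile 40 among probe sets.

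Means of the 8 groups were estimated jointly from 24 arrays in R 4.3.3 using limma 3.58.1 (eBayes with a mean-variance trend, 16 residual and 6.52 prior degrees of freedom). Tests were two-sided with Benjamini-Hochberg adjustment over 14141 genes, called under 0.05. Errors of log2 differences are SE and of signals SD. The steps were tested on simulated data.

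Values on every array were given for called members (at most 10 of smallest p in a treatment comparison, 8 of largest difference between lines) or for the 3 of smallest p, and at most 5 called genes were named per related list. IFITM3, PSMB8, BST2, IFI6, IFI44L, CXCL10 and the filtered genes were given with values beyond this, chosen after their values were seen. Members, lists and tests were chosen with earlier results of these data known. The transcript targeted by the shRNA and STAT2 were not analysed here, so the knockdown label was not checked against it. Alternatives were other offsets, filters, normalizations and probe set choices, the compared arrays alone, no trend, a replicate block and leaving out each array. Promoter sequences were RefSeq's, and the array table carries no coordinates.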

Additional observations from a re-analysis of the deposited data

How the results depend on the processing

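Between MCT1 shRNA and scramble cells, 8 members passed. Other offsets, filters, normalizations, probe sets without x_at endings and no trend gave 7 to 9 members. The mean of all probe sets of a gene gave 5 (TAP2, TAPBP and IFI44 were lost, since their probe sets disagreed), and a fit of the compared arrays alone, with fewer arrays to estimate the spread, gave 4. ISG15, IFITM1 and PSMB9 passed under every alternative run, but the 5 that remained with the mean of probe sets (these 3, IFITM2 and TAP1) have 1 probe set each, which that setting cannot change. For all genes, the compared arrays alone called 864, against 2101, and with median centring 23.1% of calls were higher, against 48.6%. That share changed likewise to 97.1%, against 69.8%, under AZD3965 in HS578T, to 50%, against 75%, in SUM149PT, and to 66.2%, against 53.5%, between scramble and DMSO. Median centring moved the median of all genes by 0.16 under AZD3965 in HS578T and by -0.10 between HS578T and SUM149PT, and it called 521 genes, against 1346, in the effect difference. Leaving out 1 array gave 7 to 8 members for the shRNA, 4 to 7 for the shRNA effect minus the AZD3965 effect (6 with all arrays), 0 to 0 for each AZD3965 comparison, 29 to 31 for HS578T minus SUM149PT, 26 to 29 for HS578T minus SUM159PT, 21 to 23 for SUM149PT minus SUM159PT (24 with all arrays) and 14 to 16 for scramble minus DMSO (17 with all arrays). In the effect difference TAP1 did not pass without DMSO replicates 1 or 3, AZD3965 replicate 2, MCT1 shRNA replicate 2 or scramble replicate 1 (adjusted p = 0.0573, 0.0614, 0.0578, 0.0684 and 0.0612), nor IFITM2 without DMSO replicate 1, AZD3965 replicates 1 or 2, MCT1 shRNA replicates 1 or 2, or scramble replicates 1 or 3 (adjusted p = 0.0619 to 0.141). For the shRNA, IFITM2 did not pass without MCT1 shRNA replicate 1 or scramble replicates 1 or 3 (adjusted p = 0.126, 0.0543 and 0.0701). All-gene counts under AZD3965 were small and moved with single arrays: 43 in HS578T became 15 to 32, 4 in SUM149PT became 2 to 648, 0 in SUM159PT became 0 to 4, 4 for the average became 0 to 66 and 17 between lines became 3 to 46. The highest of these counts in SUM149PT, for the average and between lines came without SUM149PT AZD3965 replicate 1. Other settings gave 0 to 5 in SUM149PT, 0 to 9 in SUM159PT and 0 to 9 for the average.

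Replicate numbers did not pair the arrays. Deviations of same-numbered arrays correlated at -0.131 to 0.0834, although each SUM149PT inhibitor array correlated best with its own number. With the replicate block 7 members passed for the shRNA (IFITM2 lost, adjusted p = 0.0666), 5 for the effect difference and 0 for each AZD3965 comparison, and all-gene calls were 8 in HS578T and 1 between lines, against 43 and 17 without it.

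Some gene values changed sign, for causes that were not tested beyond the change of probe set or array itself. IFI6 with the shRNA was -0.4156 to 0.3842 when 1 array was left out, the lowest without scramble replicate 3. With the mean of probe sets, SP100 was 0.0439 with the shRNA and 0.0519 for the effect difference, TAPBP was 0.0186 for HS578T minus SUM149PT, RIGI 0.42 for HS578T minus SUM159PT and IFIT2 -0.77 for SUM149PT minus SUM159PT. For scramble minus DMSO that setting gave TAP2 -0.11, IFNAR2 -0.21, ERAP1 0.0282 and PDGFRA -0.0028. Without x_at probe sets, RIGI was 0.24 for HS578T minus SUM149PT and 1.04 for HS578T minus SUM159PT, HLA-E was 0.59 for HS578T minus SUM159PT, HLA-F was 0.86 for SUM149PT minus SUM159PT, and for scramble minus DMSO HLA-E was 5e-04 and IFNAR2 -0.42. Signals near the filter of 31.7 units limit BST2, IFI27, HERC5, CXCL10, IFNLR1 and HLA-DRA, whose differences move with the offset.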
